A study of Mus musculus with 12 samples.

Results

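The genes described here are 10 genes of the glucocorticoid and metallothionein responses, measured in mouse liver with and without the clock gene Bmal1. They were chosen by symbol (Nr3c1, Hsd11b1, Fkbp5, Tsc22d3, Sgk1, Tat, Tdo2, Mt1, Mt2 and Lcn2) from 22322 gene symbols, and all 10 were among the 10799 genes tested. The 12 samples were 3 each of WT and KO liver at circadian time 0 (CT0) and at CT12. WT mice were Bmal1 flox/flox, and no CRE is stated for them. KO mice were Bmal1 flox/flox mice crossed to a line in which a liver-specific promoter drives CRE, so an effect of CRE itself cannot be told apart from the loss of Bmal1. All mice are labelled C57BL/6 and 8 weeks old, and all were kept in constant darkness for the last 2 days. The sample titles give 3 samples for each group, as do the study's methods, whereas the treatment label speaks of 2 mice per genotype and time. The titles were followed, and the p-values measure the spread between these samples.

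Glucocorticoids are steroid hormones of the adrenal gland whose blood level follows a daily rhythm, and in nocturnal rodents that level is high around the start of the night. The hormone enters the cell, binds the glucocorticoid receptor encoded by Nr3c1, and the receptor then moves to the nucleus and binds DNA at short palindromic elements near the genes it induces. In liver these include the amino acid-degrading enzymes Tat and Tdo2, the receptor cochaperone Fkbp5, the leucine zipper protein Tsc22d3 (GILZ) and the kinase Sgk1. Metallothioneins are small cysteine-rich proteins that bind zinc and copper. Their genes respond to metals, through the factor MTF1, and also to glucocorticoids and to inflammation. BMAL1, encoded by Arntl, is the partner of CLOCK at the E-boxes of the circadian clock.

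The 2 metallothionein genes lie side by side in the genome, and their promoters are shown because they varied more between mice than nearly every other gene. On the NCBIM37 build (mm9), Mt2 spans chr8:96696518-96697467 and Mt1 spans chr8:96702989-96704225, both on the plus strand, each with 3 exons and with 5521 bases between them. The 250 bases before each annotated start, from RefSeq on GRCm38.p6, are given in 5′ to 3′ order for chr8:94172368-94172617 (Mt2) and chr8:94178839-94179088 (Mt1), plus strand. Capitals mark matches to the metal element, searched on both strands as TGCACNC or TGCGCNC.

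Mt2: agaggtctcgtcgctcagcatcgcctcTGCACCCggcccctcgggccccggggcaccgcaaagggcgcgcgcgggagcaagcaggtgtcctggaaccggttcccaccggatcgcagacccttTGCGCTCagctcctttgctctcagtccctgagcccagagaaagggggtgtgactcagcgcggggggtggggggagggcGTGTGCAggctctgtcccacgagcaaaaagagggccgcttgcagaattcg

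Mt1: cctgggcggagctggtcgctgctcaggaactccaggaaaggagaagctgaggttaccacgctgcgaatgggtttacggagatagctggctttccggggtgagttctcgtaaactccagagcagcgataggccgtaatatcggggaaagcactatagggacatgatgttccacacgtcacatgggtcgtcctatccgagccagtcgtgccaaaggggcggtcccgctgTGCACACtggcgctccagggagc

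Mt2 held 3 such matches before its start and Mt1 held 1, and further matches lay within the 50 bases after the start, so that the full windows of 300 bases held 4 and 3. The metal element is short, and 25.7% of 32851 promoter windows held at least 1 match. The glucocorticoid element was searched as GNACA and TGTNC with 3 bases between. Mt1 held 1 match, the 13 bases GGACATGATGTTC that begin 94 bases before the start. Among the windows of the other members, Sgk1 held the only further match, in the window of 1 of its 6 annotated starts. That upstream stretch, chr10:21993640-21993889 on the plus strand of GRCm38.p6, is shown with the match in capitals.

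Sgk1: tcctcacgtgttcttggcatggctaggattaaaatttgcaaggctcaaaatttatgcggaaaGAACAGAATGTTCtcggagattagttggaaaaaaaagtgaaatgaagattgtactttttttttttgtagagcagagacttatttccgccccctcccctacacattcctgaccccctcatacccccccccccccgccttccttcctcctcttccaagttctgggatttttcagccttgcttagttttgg

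Of all windows, 0.475% held a match to the glucocorticoid element. Windows were found for 9 members (16 windows), with none for Nr3c1. The E-box CACGTG, the element of BMAL1 and CLOCK, was in a window of Sgk1 and in one of Fkbp5, and in 7.15% of all windows. The D-box TTATGTAA was in none of the members' windows and in 0.938% of all windows. These are matches of letters and were not tested for binding. The absence of a match says only that the letters are not in the window.

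The deposited values are RPKM (reads scaled to transcript length and to depth). Between 11460000 and 19020000 reads per sample were recovered from the spacing of the low values. Differences are given on the scale log2(RPKM + 1) with the SE of limma, folds given as times are on that scale unless named a ratio of means or of single levels, and p-values were adjusted over all 10799 genes tested, with a threshold of 0.05. In bulk liver a lower level can mean fewer cells of a type or less RNA per cell, and these cannot be told apart. Arntl lay at 15.9 ± 0.370 RPKM (SD, n = 3) in WT and 6.36 ± 0.944 in KO at CT0, and at 1.05 ± 0.320 in WT and 3.99 ± 0.391 in KO at CT12. This is a value over the whole transcript, while only 1 coding exon is floxed, so it does not check the deletion itself. Hepatocyte markers dominated every sample, with 36830.5 to 51449.5 RPKM summed over 5 markers in WT and 26288 to 35111 in KO. Albumin (Alb) was lower in KO, with a log2 difference of -0.93 at CT0 and -1.05 at CT12 (adjusted p = 0.0045 and 0.00030). Fgb, a fibrinogen chain on the same list, was higher in KO at CT12 by 0.88 ± 0.19 (adjusted p = 0.010), and the other 3 markers passed at neither time. The part of this shift in the results below was not tested, apart from the quantile normalization given at the end, which by construction gives the most abundant gene 1 value in all samples.

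**Figure D1:**
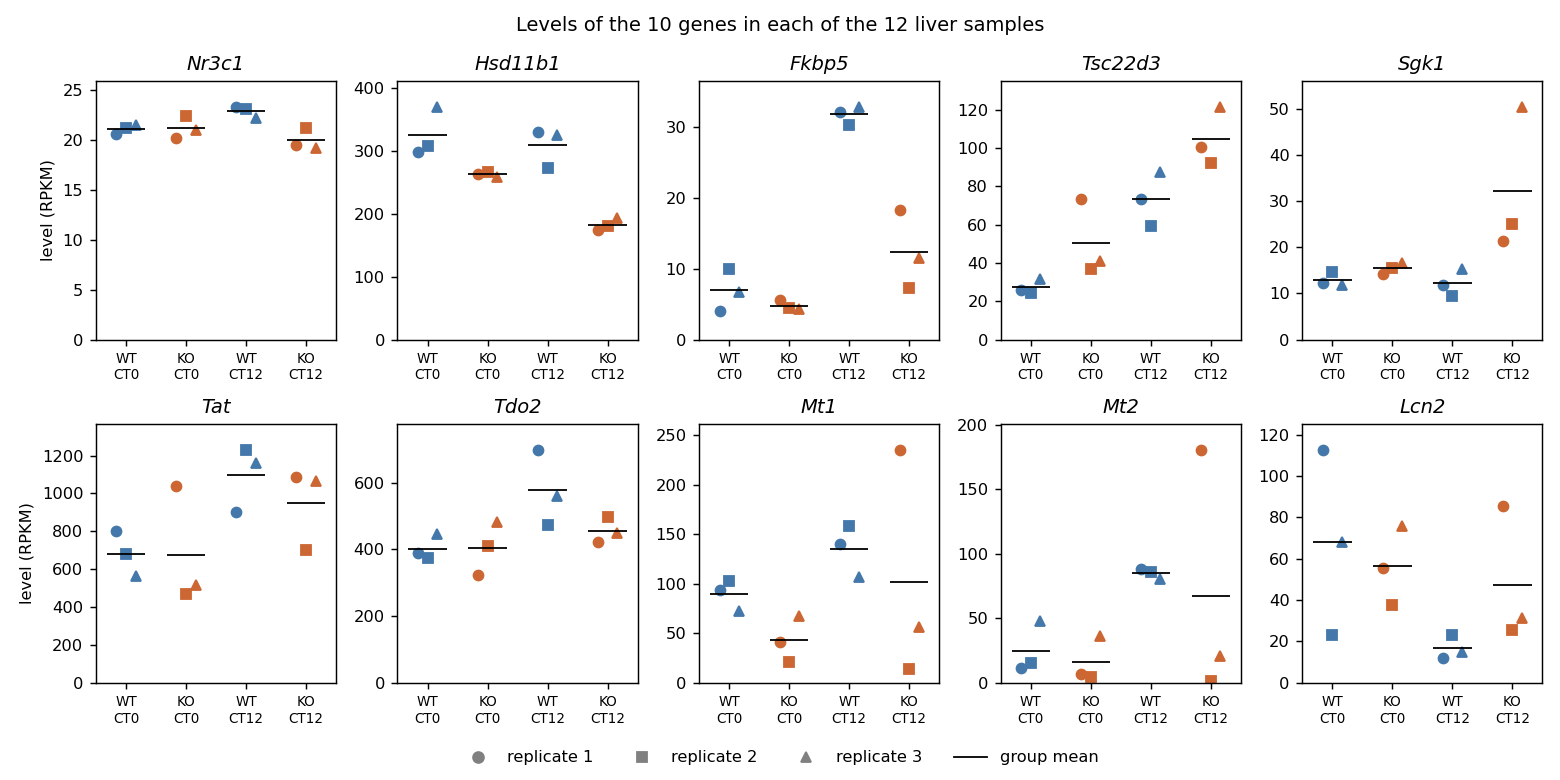
Level of each of the 10 genes in RPKM (linear axis from 0) in each of the 12 liver samples. Symbols stand for replicates, colours for genotype (blue WT, orange KO) and lines for group means. Nr3c1 stayed between 19.3 and 23.3 RPKM, whereas Mt1 and Mt2 spread widely, most of all in KO at CT12.

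The first question was whether the receptor and the local supply of its hormone differed. The receptor gene Nr3c1 measured 20.6, 21.2 and 21.6 RPKM in WT at CT0, 23.3, 23.1 and 22.3 in WT at CT12, 20.3, 22.4 and 21.0 in KO at CT0, and 19.5, 21.2 and 19.3 in KO at CT12. The highest of the 12 values was 1.21 times the lowest, and the WT samples at CT12 lay above all WT samples at CT0 and all KO samples at CT12. The difference of KO from WT was 0.00 at CT0 (95% interval -0.16 to 0.17, adjusted p = 0.99) and -0.19 at CT12 (-0.35 to -0.03, adjusted p = 0.14). No difference in Nr3c1 passed the threshold in any of the 6 comparisons. Its SD within groups, 0.0555 on the log2 scale, was smaller than that of all but 0.658% of the genes tested, where the median gene had 0.163.

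Hsd11b1 encodes the reductase that regenerates active glucocorticoid from its inactive form inside hepatocytes. It measured 298, 307 and 370 RPKM in WT at CT0 and 329, 272 and 324 in WT at CT12. In KO it measured 263, 266 and 259 at CT0 and 174, 180 and 193 at CT12. Every KO sample lay below every WT sample, at both times, and the 3 lowest of the 12 samples were those of KO at CT12. The CT12 difference of KO from WT was -0.75 ± 0.10 (SE, adjusted p = 0.00053), or 0.593 times WT on the log2(RPKM + 1) scale. At CT0 it was -0.30 ± 0.10 and missed the threshold (adjusted p = 0.19). Over time Hsd11b1 fell in KO by 0.53 ± 0.10 (SE, adjusted p = 0.024), whereas WT differed by -0.07 (95% interval -0.29 to 0.15, adjusted p = 0.70). The difference between these 2 changes, the interaction of genotype and time, was -0.46 ± 0.14 and did not pass (adjusted p = 0.19). The fall in KO lost its call in 5 of 20 alternatives, among them leaving out KO replicate 1 or 2 at CT12 or KO replicate 1 or 3 at CT0. Hsd11b1 spans chr1:195047824-195090248 on the minus strand (NCBIM37), and 2 annotated genes on the other strand, 4930570N18Rik and 1600010F14Rik, overlap it. Whether the reads were counted by strand is not stated, so reads of these genes cannot be told apart from it. All 6 of its transcript rows gave a CT12 difference between -0.85 and -0.75.

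Other genes of receptor and steroid handling were read from a list of 15, of which 14 were tested. At CT12, 1 of the 14 was lower in KO, 1 was higher and the median difference was -0.14, where 10.5% of all genes passed with a median of 0.08. The lower one was Serpina6, which encodes the corticosteroid-binding globulin that carries the hormone in blood. Its mean was 76.8 ± 10.5 RPKM (SD, n = 3) at CT0 and 184.9 ± 29.8 at CT12 in WT, against 52.2 ± 11.7 and 46.8 ± 2.63 in KO. The CT12 difference of KO from WT was -1.95 ± 0.17 (adjusted p = 1.6e-05, lower in 3 of 3 samples), and the interaction was -1.38 ± 0.23 (adjusted p = 0.012). H6pd, whose product supplies Hsd11b1 with its cofactor, was higher in KO at CT12 by 0.46 ± 0.10 (adjusted p = 0.0095). At CT0 none of the 14 genes passed limma's threshold, and 1 had an unadjusted p under 0.05. Hsd11b2, the enzyme that inactivates the hormone in kidney, was listed at 0 in all 12 samples.

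The question of the CT12 comparison was whether the induced genes differed between genotypes at the time when glucocorticoid is usually high. Of the 10 members, 3 passed the threshold (Fkbp5 and Hsd11b1 lower in KO and Sgk1 higher), against 10.5% of all genes tested. Fkbp5, a cochaperone that restrains the receptor and is itself induced by it, measured 32.2, 30.4 and 32.9 RPKM in WT and 18.3, 7.29 and 11.5 in KO. All 3 KO samples lay below the WT samples, whose range was narrow. The difference of KO from WT was -1.38 ± 0.29 (SE, adjusted p = 0.0097), or 0.384 times WT. Sgk1, a kinase that regulates ion transport and cell survival, measured 11.9, 9.43 and 15.4 RPKM in WT and 21.3, 25.0 and 50.4 in KO. All 3 KO samples lay above the WT samples, and KO replicate 3 was the highest of the 12 samples. KO was higher by 1.25 ± 0.26 (SE, adjusted p = 0.0087), or 2.38 times WT. The 2 induced genes Fkbp5 and Sgk1 thus differed in opposite directions, and neither call was lost in any of 20 alternatives. For Fkbp5 the alternatives ranged from -1.69 to -1.08, and for Sgk1 from 0.89 to 1.49.

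The transcript chosen for a gene made little difference to these values. Transcripts of a gene can share reads, and how such reads were counted is not stated, so the rows may not be independent. The 4 transcript rows of Fkbp5 gave between -1.38 and -1.23 at CT12, and 8 of the 9 rows of Sgk1, those with a mean of at least 1 RPKM, gave between 1.13 and 1.58. Fkbp5 spans chr17:28536040-28654469 on the minus strand, with a 7SK gene inside it on the other strand. Sgk1 spans chr10:21601990-21719709 on the plus strand, both on NCBIM37. The rows used were fragments of the longest transcripts, with 777 bases for Fkbp5 and 859 for Sgk1.

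**Figure D2:**
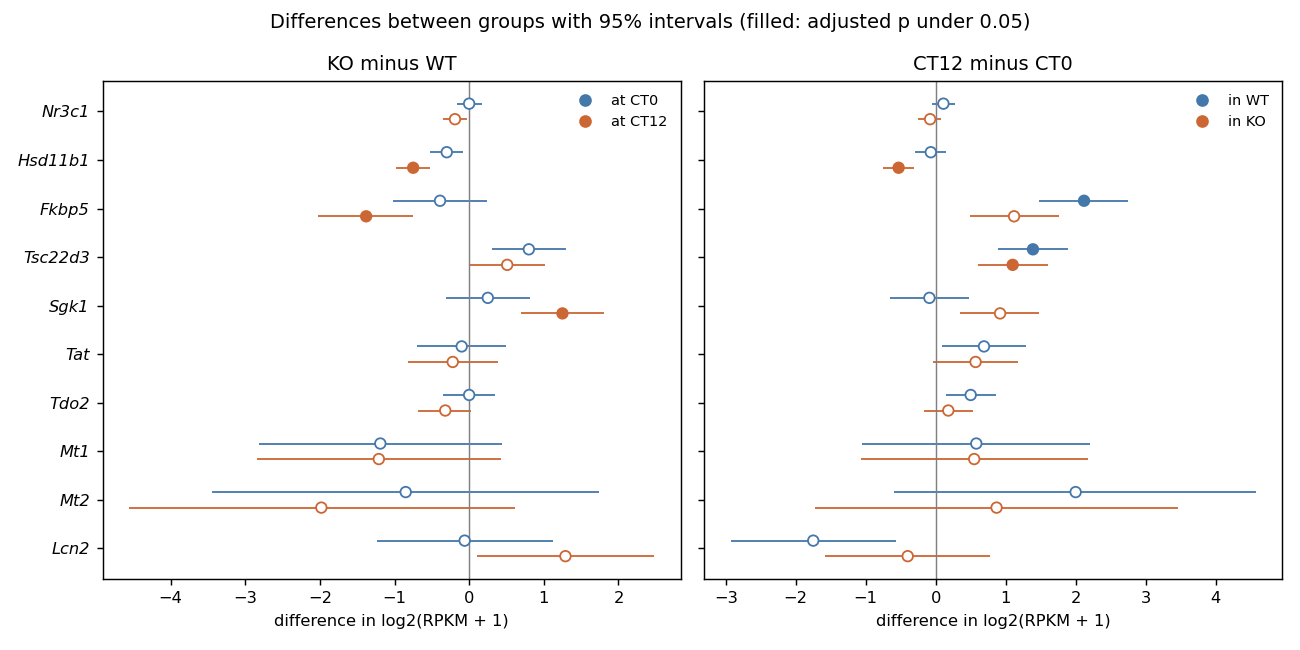
Differences in log2(RPKM + 1) of KO minus WT (left, blue at CT0 and orange at CT12) and of CT12 minus CT0 (right, blue in WT and orange in KO), with 95% intervals from limma and filled points for an adjusted p under 0.05. At CT12, Fkbp5 (-1.38) and Hsd11b1 (-0.75) lay below 0 and Sgk1 (1.25) above it, and the intervals of Mt1 and Mt2 were the widest.

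At CT0 the genotypes were compared in the same way. None of the 10 members passed limma's threshold, against 1.86% of all genes, and 2 had an unadjusted p under 0.05 (Tsc22d3 and Hsd11b1). Fkbp5 measured 4.09, 9.95 and 6.78 RPKM in WT and 5.61, 4.43 and 4.38 in KO. The groups overlapped, and the difference was -0.39 (95% interval -1.02 to 0.24, adjusted p = 0.61). Sgk1 measured 12.2, 14.7 and 11.8 RPKM in WT and 14.2, 15.5 and 16.7 in KO. These groups overlapped too, with a difference of 0.25 (-0.31 to 0.81, adjusted p = 0.73).

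Averaged over both times, 4 of the 10 members passed, against 11.5% of all genes: Tsc22d3 and Sgk1 were higher in KO, and Fkbp5 and Hsd11b1 were lower. The mean difference of KO from WT was 0.75 ± 0.18 for Sgk1 (adjusted p = 0.019) and -0.89 ± 0.21 for Fkbp5 (adjusted p = 0.015). For Hsd11b1 it was -0.53 ± 0.07 (adjusted p = 0.00053). Tsc22d3 encodes GILZ, an induced protein with anti-inflammatory effects, and lies at chrX:137074067-137135198 on the minus strand (NCBIM37). It measured 25.9, 24.1 and 31.9 RPKM in WT at CT0 and 73.6, 36.7 and 41.0 in KO. It measured 73.7, 59.3 and 87.6 in WT at CT12 and 100.5, 92.3 and 121.6 in KO. At each time every KO sample lay above every WT sample, with KO replicate 1 the highest at CT0. Its mean genotype difference was 0.66 ± 0.16 (SE, adjusted p = 0.021), and the call was lost without WT replicate 2 at CT0, WT replicate 2 at CT12 or KO replicate 3 at CT12, where the highest adjusted p was 0.055. Neither the CT0 difference of 0.80 (adjusted p = 0.11) nor that of 0.51 at CT12 (0.19) passed by itself.

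The comparison of times asked which members followed the daily cycle in each genotype. In WT, Fkbp5 and Tsc22d3 rose from CT0 to CT12, which is 2 of the 10 members against 11.6% of all genes. Fkbp5 rose by 2.12 ± 0.29 (adjusted p = 0.00075), or 4.34 times, and Tsc22d3 by 1.39 ± 0.23 (adjusted p = 0.0027), or 2.62 times. In neither gene did the WT groups overlap. In KO, 2 members passed against 2.43% of all genes, Tsc22d3 upward by 1.1 ± 0.23 (adjusted p = 0.033) and Hsd11b1 downward. Fkbp5 in KO differed by 1.12 ± 0.29 with no overlap between times, and its adjusted p of 0.066 missed the threshold. That value passed with RPKM summed over transcripts (adjusted p = 0.035), with the longest transcript (0.020) and without WT replicate 1 at CT0 (0.046) or KO replicate 2 at CT12 (0.045). The rise of Tsc22d3 in KO kept its call in 13 of 20 alternatives, and it lost it without any 1 of the 3 KO samples at CT12 or without KO replicate 2 or 3 at CT0, with adjusted p up to 0.11.

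Whether time acted differently in the genotypes was tested by the interaction. None of the 10 members passed limma's threshold, against 1.49% of all genes, and 3 had an unadjusted p under 0.05. These were Hsd11b1, Fkbp5 with -0.99 ± 0.41 (adjusted p = 0.34) and Sgk1 with 1.0 ± 0.36 (adjusted p = 0.26). The rise of Fkbp5 in WT is therefore not shown to differ from that in KO, although its level at CT12 did differ between genotypes. Sgk1 differed between times by -0.09 in WT (95% interval -0.65 to 0.47) and by 0.92 in KO (0.35 to 1.48, adjusted p = 0.086).

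The liver enzymes Tat and Tdo2 were measured at high levels throughout. Tat, tyrosine aminotransferase, begins the breakdown of tyrosine and is a classical glucocorticoid target. It measured 799, 682 and 564 RPKM in WT at CT0, 904, 1229 and 1162 in WT at CT12, 1040, 467 and 516 in KO at CT0 and 1088, 702 and 1066 in KO at CT12. The WT groups did not overlap, and KO replicate 1 at CT0 lay with the CT12 samples. The change with time was 0.69 ± 0.28 in WT (adjusted p = 0.13) and 0.57 ± 0.28 in KO (adjusted p = 0.28). In WT it passed without KO replicate 1 at CT0 (adjusted p = 0.034) and when only the 6 WT samples were fitted (0.032). Between genotypes Tat differed by -0.10 at CT0 (95% interval -0.70 to 0.50) and by -0.22 at CT12 (-0.82 to 0.38).

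Tdo2, tryptophan 2,3-dioxygenase, begins the breakdown of tryptophan. It measured 389, 373 and 445 RPKM in WT at CT0, 698, 472 and 560 in WT at CT12, 324, 410 and 483 in KO at CT0 and 421, 497 and 449 in KO at CT12. The WT groups did not overlap between times and the KO groups did. The change with time was 0.50 ± 0.16 in WT (adjusted p = 0.064) and 0.18 ± 0.16 in KO (adjusted p = 0.56), with an interaction of -0.32 (95% interval -0.82 to 0.17). In WT it passed without WT replicate 2 at CT12 (adjusted p = 0.035) or KO replicate 1 at CT0 (0.036). Of 10 other genes of tyrosine and tryptophan breakdown, 1 was higher in KO at CT12 and 2 were lower, where 10.5% of all genes passed. Kynu, kynureninase, was higher by 0.95 ± 0.13 (adjusted p = 0.00052), and the arylformamidase Afmid and the dioxygenase Ido2 were lower, with differences of -0.61 and -0.50 (adjusted p = 0.018 and 0.023). The latter 2 calls were both lost without WT replicate 3 or KO replicate 2 at CT12. At CT0, 1 of the 10 passed, Kynu, higher in KO by 0.64 ± 0.13 (adjusted p = 0.027), where 1.86% of all genes passed. There 7 had an unadjusted p under 0.05, and 0 to 2 passed as higher with 1 sample left out. Averaged over times, 3 were higher in KO and 1 was lower, where 11.5% of all genes passed. With 1 sample left out, 1 to 3 were higher and 1 to 2 lower.

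Other known glucocorticoid-induced genes were read from a list of 18, of which 17 symbols were found and 16 were tested. From CT0 to CT12 in WT, 8 of the 16 rose and 1 fell, with a median of 0.66, where 11.6% of all genes passed with a median of -0.068. In KO, 5 rose and none fell, with a median of 0.84, where 2.43% of all genes passed with a median of -0.002. Lpin1, a phosphatidate phosphatase, showed the largest rise in WT, 3.0 ± 0.47 (adjusted p = 0.0018), and its value in KO was 1.57 ± 0.47 (adjusted p = 0.10). Per1, a clock gene that glucocorticoid also induces, rose in both genotypes, with 2.48 ± 0.31 in WT and 1.5 ± 0.31 in KO (adjusted p = 0.00038 and 0.031). Pck1, the gluconeogenic enzyme PEPCK, rose by 2.03 ± 0.23 (adjusted p = 0.0015) and the transcription factor Zbtb16 by 1.76 ± 0.23 (adjusted p = 0.0042) in KO. Both also rose in WT, Pck1 by 1.33 ± 0.23 (adjusted p = 0.0032) and Zbtb16 by 1.12 ± 0.23 (adjusted p = 0.0097). The fall in WT was that of Igfbp1, which insulin represses, with a change of -1.68 ± 0.43 (adjusted p = 0.027). Its value in KO was -1.29 ± 0.43 and missed the threshold (adjusted p = 0.13). With 1 sample left out, between 6 and 8 genes rose in WT and between 3 and 7 in KO, with 3 in KO without replicate 3 at CT0 or without replicate 1 or 2 at CT12, and the fall of Igfbp1 was lost without WT replicate 2 or 3 at either time.

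**Figure D3:**
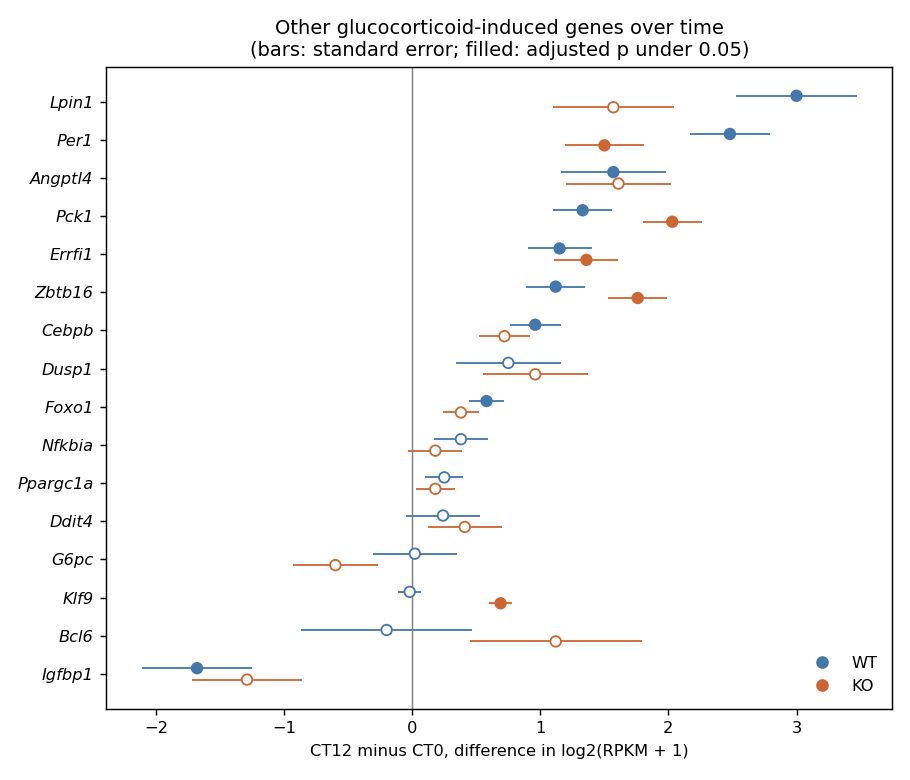
Difference between CT12 and CT0 in log2(RPKM + 1) for 16 other glucocorticoid-induced genes, in WT (blue) and KO (orange), with SE bars and filled points for an adjusted p under 0.05. Lpin1 and Per1 had the largest values in WT (3.0 and 2.48), and Pck1 and Zbtb16 the largest in KO (2.03 and 1.76).

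Between genotypes, 1 of these 16 genes passed at each time, where 1.86% of all genes passed at CT0 and 10.5% at CT12. An unadjusted p under 0.05 was found for 6 of the 16 at CT0 and for 2 at CT12. Klf9, a transcription factor induced by glucocorticoid, was lower in KO at CT0 with a difference of -0.55 ± 0.09 (adjusted p = 0.012), from 16.4 ± 1.32 RPKM in WT and 10.9 ± 1.27 in KO (SD, n = 3). Its interaction was 0.71 ± 0.13 (adjusted p = 0.021), and it lost its call under quantile normalization and without any 1 of WT replicates 1 and 3 at CT0, WT replicates 1 and 2 at CT12 and KO replicates 2 and 3 at CT12. Ddit4, an inhibitor of mTOR signalling, was higher in KO at CT12 by 1.12 ± 0.29 (adjusted p = 0.030), a call also lost under quantile normalization and without WT replicate 1 or 2 or KO replicate 1 or 3 at CT12. The median genotype difference over the 16 genes was -0.11 at CT0 and -0.14 at CT12. Averaged over times, Ddit4 was higher in KO by 1.04 ± 0.21 (adjusted p = 0.007), where 11.5% of all genes passed. Angptl4 was lower, with a difference of -0.97 ± 0.29 (adjusted p = 0.048). For that average, 1 gene was higher under quantile normalization and in each fit with 1 sample left out. The number of lower genes was 1 under quantile normalization and ran from 0 to 2 with 1 sample left out.

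Mt1 and Mt2 had the widest spread between mice of all 10 genes. Mt1 measured 94.1, 103.3 and 72.5 RPKM in WT at CT0, 140.1, 158.4 and 107.1 in WT at CT12, 40.8, 20.6 and 67.8 in KO at CT0, and 235.1, 13.4 and 56.6 in KO at CT12. At CT0 all 3 KO samples lay below the WT samples, whereas at CT12 KO held both the highest and the lowest of the 12 values. Mt2 measured 11.2, 15.6 and 47.5 RPKM in WT at CT0, 88.2, 86.0 and 80.1 in WT at CT12, 6.76, 4.80 and 36.4 in KO at CT0, and 180.4, 1.63 and 20.53 in KO at CT12. The highest Mt2 value was 110.6 times the lowest, between KO replicates 1 and 2 at CT12, and these rested on 1446 and 12 reads. For Mt1 the same 2 samples differed by 17.5 times, on 1831 and 96 reads. The SD within groups was 1.77 on the log2 scale for Mt2 and 1.11 for Mt1, larger than in 99.95% and 99.84% of the genes tested. In WT at CT12 the spread of Mt2 was small, with 84.7 ± 4.21 RPKM (SD, n = 3).

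No comparison of Mt1 or Mt2 between groups passed the threshold with all samples. The ratio of mean Mt1 levels, KO to WT, was 0.752 at CT12, and the log2 difference was -1.21 ± 0.75 (adjusted p = 0.35) there and -1.20 ± 0.53 averaged over times (adjusted p = 0.18). Mt2 differed by -1.98 ± 1.19 at CT12 (95% interval -4.56 to 0.61, adjusted p = 0.34) and by -0.85 at CT0 (-3.44 to 1.74). The Mt2 difference at CT0 ran from -1.68 to -0.26 with 1 sample left out. The values at CT12 and averaged over times turned on KO replicates 1 and 2 at CT12. Without KO replicate 1 at CT12, the CT12 difference was -2.22 for Mt1 (adjusted p = 0.029) and -3.51 for Mt2 (adjusted p = 0.040). The mean genotype difference was then -1.70 (adjusted p = 0.013) and -2.18 (adjusted p = 0.046). Without KO replicate 2 at CT12 instead, the CT12 difference was -0.20 for Mt1 (adjusted p = 0.88) and -0.46 for Mt2 (adjusted p = 0.84), and the mean genotype difference was -0.70 and -0.65 (adjusted p = 0.28 and 0.59). No label sets either library apart. Of the 3 KO samples at CT12, replicate 1 also had the highest Fkbp5, Lcn2 and Tat, and the lowest Sgk1, Hsd11b1 and Tdo2. It lay between the others for Tsc22d3 and Nr3c1. Among 3 samples each gene has 1 highest and 1 lowest, so this order alone does not set replicate 1 apart. Over time in WT, Mt2 differed by 2.0 ± 1.19 (adjusted p = 0.31) with no overlap between the groups, and it passed when only the 6 WT samples were fitted (adjusted p = 0.026). The SE of 1.19 rests on the spread pooled over all 4 groups, not on WT alone. The SD of Mt2 within single groups ran from 0.072 to 3.05 on the log2 scale.

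**Figure D4:**
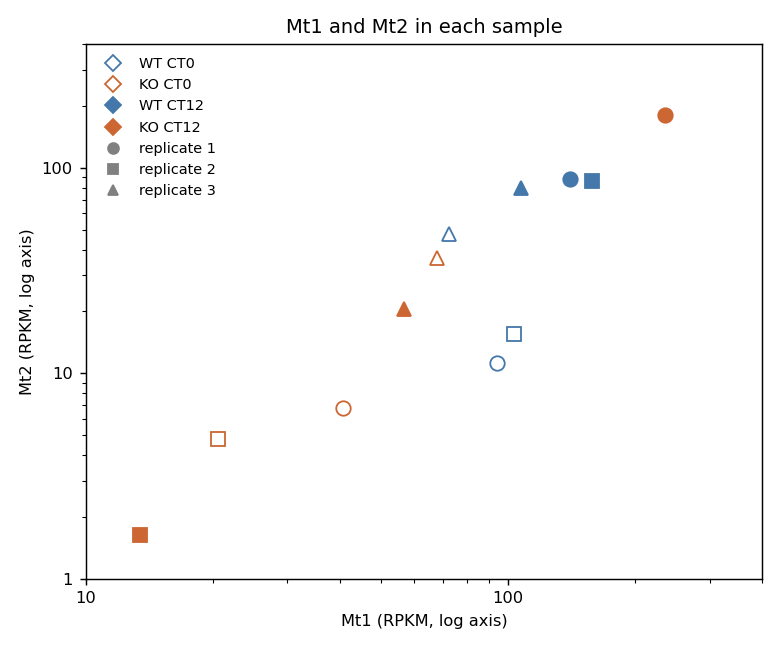
Mt1 against Mt2 in RPKM in each sample, both on log axes, with colours for genotype, open symbols for CT0 and filled for CT12, and shapes for replicates. KO replicates 1 and 2 at CT12 sit at the 2 ends of the plot, at 180.4 and 1.63 RPKM of Mt2.

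The ratio of Mt1 to Mt2 was not fixed. It ran from 1.30 in KO replicate 1 at CT12 to 8.38 in WT replicate 1 at CT0, and was 8.24 in KO replicate 2 at CT12. In WT at CT12 it lay between 1.34 and 1.84. The 2 transcripts, of 540 and 556 bases, were 67.8% identical over 519 aligned bases and shared no stretch longer than 20 bases. The brain and skin metallothioneins Mt3 and Mt4 were listed at 0 in every sample.

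Other genes of zinc and metal handling were read from a list of 14, of which 11 were tested. At CT12, 2 were higher in KO and none lower, with a median of 0.16, where 10.5% of all genes passed with a median of 0.08. The transporter Slc30a10 was higher in KO by 1.70 ± 0.12 (adjusted p = 3.9e-06), with 2.48 ± 0.164 RPKM in WT and 10.3 ± 1.06 in KO (SD, n = 3). At CT0 it measured 10.5 ± 0.596 in WT and 11.2 ± 1.89 in KO, and the interaction was 1.63 ± 0.16 (adjusted p = 0.00053). The metal importer Slc39a8 was higher by 0.79 ± 0.12 (adjusted p = 0.0012). Mtf1, the metal-sensing factor of the metallothionein genes, had means between 3.87 and 4.64 RPKM in the 4 groups. At CT0 none of the 11 genes passed in limma, and 1 had an unadjusted p under 0.05.

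Lcn2 encodes lipocalin 2, an iron-scavenging acute-phase protein that hepatocytes and neutrophils both make. It measured 112.6, 23.3 and 68.3 RPKM in WT at CT0, 12.0, 23.1 and 14.9 in WT at CT12, 55.5, 37.8 and 75.9 in KO at CT0, and 85.6, 25.4 and 31.2 in KO at CT12. At CT12 all 3 KO samples lay above the WT samples, while at CT0 the groups overlapped. The difference at CT12 was 1.29 ± 0.54 (95% interval 0.11 to 2.48, adjusted p = 0.16), and the change with time in WT was -1.75 ± 0.54 (adjusted p = 0.057). The latter passed without WT replicate 2 at CT0 (adjusted p = 0.014), without KO replicate 1 at CT12 (0.036), with the longest transcript of each gene (0.047) and with the replicate number as a block (0.049). Its SD within groups, 0.804, was larger than in 99.47% of genes.

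Markers of neutrophils moved with genotype and time. Averaged over times, 6 of 7 neutrophil markers were higher in KO and none lower, where 11.5% of all genes passed. Leaving out 1 sample gave 3 to 7 higher markers. The number was 3 without WT replicate 2 or 3 at CT0 or WT replicate 1 at CT12. It was also 3 without KO replicate 1 or 3 at CT0 or KO replicate 2 at CT12. Their summed level was 32.2 to 111.8 RPKM in WT at CT0, 5.94 to 8.80 in WT at CT12, 103.7 to 219.4 in KO at CT0 and 17.8 to 46.3 in KO at CT12. The markers S100a8 and S100a9 were present in all 12 samples, and Camp and Elane were at 0 in some WT samples at CT12. At CT12 the 2 calcium-binding proteins S100a8 and S100a9 were higher in KO, by 1.75 ± 0.43 (adjusted p = 0.024) and 1.65 ± 0.39 (adjusted p = 0.019). Both calls were lost without KO replicate 1 or 2 or WT replicate 2 at CT12. At CT0 none of the 7 markers passed between genotypes, where 1.86% of all genes passed, and all 7 had an unadjusted p under 0.05. With 1 sample left out, 0 to 4 passed there as higher in KO. From CT0 to CT12, 5 of the 7 fell in WT and 6 in KO, where 11.6% and 2.43% of all genes passed. Under quantile normalization 2 fell in WT and 4 in KO. With 1 sample left out, 2 to 6 fell in WT and 0 to 7 in KO, with 0 in KO without KO replicate 3 at CT0. The part of these markers in the values of Lcn2 was not tested. None of the 8 Kupffer cell and macrophage markers or the 3 bile duct markers tested passed between genotypes at CT12 in limma, and none had an unadjusted p under 0.05. Of 5 endothelial and 5 stellate cell markers none passed either, with 1 unadjusted p under 0.05 in each list. Of all genes, 10.5% passed in that comparison. From CT0 to CT12 in WT, 1 marker of each of these 4 lists fell, where 11.6% of all genes passed. The changes were -0.66 for Emr1 of macrophages (adjusted p = 0.048), -0.68 for Cdh5 of endothelium (0.013), -0.81 for Pdgfrb of stellate cells (0.0039) and -0.75 for Krt7 of bile ducts (0.032). In KO only Pdgfrb passed, with -0.82 (adjusted p = 0.016), where 2.43% of all genes passed. Of the 12 fits with 1 sample left out, the WT calls were lost in 7 for Emr1, 2 for Cdh5, 4 for Krt7 and 0 for Pdgfrb, and that of Pdgfrb in KO in 2. The summed endothelial level was 78.2 to 100.7 RPKM in WT at CT0 and 55.8 to 65.7 in WT at CT12, and 92.7 to 108.5 and 47.3 to 107.8 in KO. The part of these markers in the members' changes with time was not tested.

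**Figure D5:**
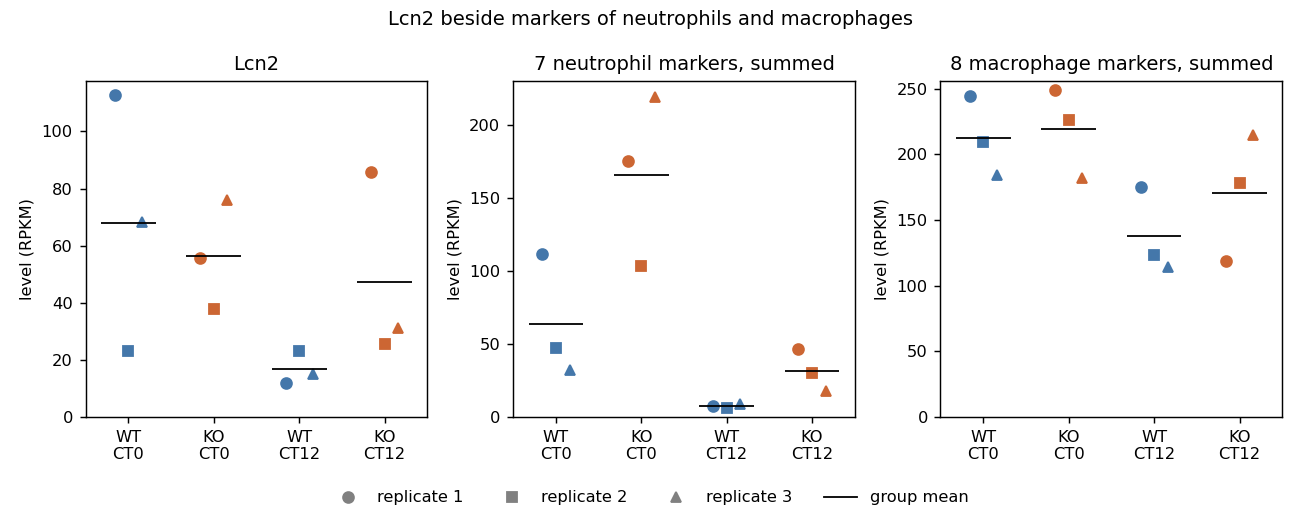
Lcn2 (left), the sum of 7 neutrophil markers (middle) and the sum of 8 macrophage markers (right) in RPKM in each sample, on linear axes from 0, with symbols for replicates, colours for genotype and lines for group means. The neutrophil sum was highest in KO at CT0 (103.7 to 219.4 RPKM), where both this sum and Lcn2 overlapped WT.

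The acute-phase list of 18 genes was read beside Lcn2. At CT12, 4 of the 18 passed as higher in KO and none as lower, with a median of 0.25, where 10.5% of all genes passed. Serum amyloid P (Apcs) was higher by 1.42 ± 0.22 (adjusted p = 0.0015), the inhibitor heavy chain Itih3 by 1.09 ± 0.16 (adjusted p = 0.0011) and the fibrinogen chain Fgg by 0.91 ± 0.16 (adjusted p = 0.0040). At CT0 none of the 18 passed, with a median of -0.24, where 1.86% of all genes passed, and 6 had an unadjusted p under 0.05. Averaged over times, 2 were higher in KO (Apcs and Itih3), where 11.5% of all genes passed. Il6ra was lower, with a difference of -0.50 ± 0.10 (adjusted p = 0.0066), and the median was 0.01. From CT0 to CT12 in WT, 5 fell and 2 rose, with a median of -0.47, where 11.6% of all genes passed. In KO 2 rose and none fell, with a median of 0.23, where 2.43% of all genes passed. The 2 that rose were Il6ra and Il1r1 in both genotypes. Under quantile normalization 1 gene of the list was lower in KO at CT12. With 1 sample left out, 2 to 6 genes fell in WT, with 2 without WT replicate 1 at CT0.

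For the 4 members that passed a threshold, the genes whose pattern over the 12 samples was nearest were named by the root mean square difference of the centred log2 values. Hsd11b1 was nearest to D130043K22Rik (0.110) and Tnfrsf14 (0.140). Sgk1 was nearest to Mtnr1a (0.294) and Smpd2 (0.306). Tsc22d3 was nearest to Fam35a (0.358) and Ctps (0.374), and Fkbp5 to the cytochrome P450 reductase gene Por (0.359) and St3gal5 (0.382). None of the other 9 members was among these nearest genes.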

How the data were processed

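Total RNA of snap-frozen mouse liver was extracted with Trizol and sequenced from TruSeq libraries. The authors deposited 1 table per sample of RPKM values for 46585 transcripts. The submitters' processing notes name TopHat2, bedtools 2.19.1 and the mm9 build, and the role of each is not given in the sources used here, nor is strand handling or the treatment of reads shared between transcripts. A test for these libraries is not given in the sources used here. The transcript with the highest mean was kept for each symbol, and a gene was tested where the mean of any group reached 1 RPKM. Values were analysed as log2(RPKM + 1), a scale that understates the change of low genes, in a model of 4 group means over all 12 samples (limma 3.58.1 in R 4.3.3, lmFit and eBayes with trend), with Benjamini-Hochberg adjustment and a threshold of 0.05. The spread was pooled over the 4 groups, so an SE also reflects the spread of groups outside its comparison.

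Depth was recovered from low values, since RPKM times transcript length fell on whole steps for 95.5% to 96.2% of values of up to 20 reads (tolerance 0.05 of a read). The model and the depth step were tested on simulated data. Transcript positions came from GENCODE vM1 (NCBIM37), which held 95.5% of the transcripts, and promoter windows from RefSeq. Python 3.11.15, pandas 2.3.3, Biopython 1.88 and matplotlib 3.10.9 were used.

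The 10 genes and all lists were chosen with earlier results of these data known. From each list, up to 3 genes with the largest difference among those past the threshold were eligible to be named in each comparison, and S100a8, S100a9, Mtf1, Hsd11b2, Mt3, Mt4, Camp and Elane were also named as single values. Alternatives were a pseudocount of 0.1, no filter, 1 RPKM in every sample, quantile normalization, RPKM summed over transcripts, the replicate number as a block, a fit of the 6 samples of a comparison alone, and each sample left out in turn. The longest transcript for each gene was chosen after seeing the data.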

Additional observations from a re-analysis of the deposited data

Results flagged for a closer look

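The effect of time differed between genotypes, by the interaction of genotype and time in limma, for 6 genes named beside the 10 members and for none of the 10 members themselves. The interaction, as the KO change minus the WT change on the log2 scale, was 2.5 for Arntl (adjusted p = 7.2e-05), 1.63 for the transporter Slc30a10 (adjusted p = 0.00053) and -1.38 for the corticosteroid-binding globulin Serpina6 (adjusted p = 0.012), and these 3 passed under every alternative that gave a value. It was 0.71 for Klf9 (adjusted p = 0.021), -1.49 for Por (adjusted p = 0.027) and 1.14 for the fibrinogen chain Fgg (adjusted p = 0.033), which passed under 12, 9 and 6 of 19 alternatives.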

How the results depend on the processing

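Of 11 calls of the 10 genes over the 6 comparisons, 8 kept their direction and their side of the threshold under every alternative that was run, and the exceptions (the changes with time of Hsd11b1 and Tsc22d3 in KO and the mean genotype difference of Tsc22d3) are given above. The number of members called was 3 for KO against WT at CT12 and ran from 3 to 5 with 1 sample left out, with 5 without KO replicate 1 at CT12. For the change with time in WT it was 2, ran from 2 to 4 with 1 sample left out, and was 4 with only the 6 samples compared. For the change in KO it was 2, ran from 0 to 3 with 1 sample left out, and was 1 with no filter and 0 with only the 6 samples compared. For the mean genotype difference it ran from 3 to 6, and for KO against WT at CT0 and for the interaction it was 0 throughout. The causes were not tested.

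Values that changed sign were all uncalled. Nr3c1 in KO against WT at CT0 was 0.00, with -0.03 under quantile normalization, -0.00 with RPKM summed over transcripts and -0.01 with the longest transcript, and the interaction of Mt1 was -0.02, with 0.00 under quantile normalization. With 1 sample left out, differences at CT0 ran from -0.03 to 0.04 for Nr3c1, from -0.46 to 0.12 for Tat, from -0.14 to 0.15 for Tdo2 and from -0.68 to 0.43 for Lcn2. Changes with time ran from -0.25 to 0.07 for Sgk1 and from -0.13 to 0.03 for Hsd11b1 in WT, and from -0.46 to 1.56 for Mt1 and from -0.66 to 2.39 for Mt2 in KO. Interactions ran from -1.04 to 0.98 for Mt1, from -2.66 to 0.39 for Mt2, from -0.34 to 0.24 for Tat and from -0.48 to 0.01 for Tsc22d3.

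Samples with the same replicate number did not deviate together (mean correlation of deviations 0.00825, range -0.0665 to 0.139 over 18 pairs), and 5 of 12 samples correlated best with their own number. With the replicate number as a block, 3 members were called for KO against WT at CT12, 3 for the change in WT, 2 for the change in KO and 4 for the mean genotype difference. With 3 samples a group, the intervals of Mt1, Mt2 and Lcn2 were wide (-4.56 to 0.61 for Mt2 in KO against WT at CT12), and 1 read on a transcript of 1 kilobase was worth 0.0526 to 0.0872 RPKM.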
